A study of Mus musculus with 2 samples.

Results

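The circadian clock genes of the prefrontal cortex (PFC) were compared between mice exposed to chronic mild stress (CMS group) and control mice (C group). The set held 10 genes, namely Per1, Per2, Per3, Cry1, Cry2, Arntl, Npas2, Nr1d1, Nr1d2 and Dbp, of 27117 gene names with a ratio between the groups. They were chosen by name as parts of the clock, and their probes were found through the RefSeq accession that the scanner files give for each spot. All 10 genes had a probe, 11 probes in all, and each of the 11 was well above background on both arrays.

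The animals were male C57BL/6N mice, labelled C57Bl/6 N sea, and were 9 to 10 weeks old at the start. Mice of the C group received ordinary care in group cages under a 12-h light/dark cycle, while mice of the CMS group were housed singly and met unpredictable mild stressors for 4 weeks. Among these stressors was continuous overnight illumination of 36 h, together with restraint, forced swimming, inescapable shock, cage tilt, a wet cage and water deprivation. Brains were taken the day after the last stressor, and the time of day is not given in the sources used here. Total RNA of the PFC was pooled within each group, from 7 mice per pool by the series' design text, whereas the methods name 10 mice per group for arrays and qRT-PCR. Each pool was hybridized to 1 one-color Agilent mouse array. With 1 array per group there was no replicate, and no test between the groups could be made. Single housing, altered light and the other stressors cannot be told apart. Nor can any of them be told apart from a difference between the groups in the hour of sampling, at which clock genes differ. In bulk tissue neither can fewer cells of a type and less RNA per cell.

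The clock of mammalian cells is a feedback loop of transcription. ARNTL (also called BMAL1) pairs with CLOCK or NPAS2 and activates genes through DNA elements called E-boxes, among them the Per and Cry genes, whose proteins return to repress their own activators. In a second loop, the receptors NR1D1 and NR1D2 (REV-ERB alpha and beta) repress, and the ROR receptors activate, genes that carry ROR elements, such as Arntl itself. DBP and its relatives act through D-boxes and carry the rhythm to output genes. In most tissues genes driven through E-boxes and genes driven through ROR elements therefore peak at roughly opposite times of day. Neurons of the cortex run this loop too, and there Per1 and Per2 can also be induced by synaptic activity and by glucocorticoids.

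Promoter windows with matches to these elements are shown first, to show what the elements look like in single clock genes. The groups compared later follow textbook control and not these matches. RefSeq windows of 300 bases, 250 before and 50 after the start site, were found for 23 of 26 clock genes, the 10 genes above and 16 further ones described later. Of the 10 genes, 9 had a window and Per2 had none. The E-box CACGTG, searched on both strands like all motifs here, was present in 7.15% of all 32851 windows and in those of 5 clock genes, Per1, Cry1, Tef, Bhlhe41 and Ciart. Its variant CACGTT, added to the search after the expression values were seen, was in 4.68% of all windows and in those of Cry1, Cry2, Nr1d1 and Rorb. The D-box TTATGTAA was in 0.938% of all windows and in those of Per3 and Timeless, and TTACGTAA, in 0.119% of all windows, was in none of the clock genes. The ROR core TAGGTCA was in 2.61% of all windows and in those of Arntl and Nfil3. A stricter and a looser long form of the ROR element, which contain this core after A-rich letters, stood in 0.219% and 0.7% of all windows, and both matched in Arntl alone among the clock genes. The cAMP response element TGACGTCA was in 1.79% of all windows and in that of Hlf, and its part TGACG was in 20.8% of all windows and in those of 9 clock genes, including Per1, Cry1 and Cry2. A match describes letters in a window and is not a mapped binding site. The windows below are written 5′ to 3′ on the gene's strand (RefSeq, build GRCm38.p6), with the named motif in capitals. They show an E-box in a gene that was lower in the CMS pool (Per1), 3 E-boxes in the most strongly lowered clock gene (Ciart), an E-box in a gene with almost equal signals (Cry1), 2 D-boxes in another such gene (Per3), and the ROR core in the gene with the highest ratio of the 10 (Arntl). Per1 and Arntl each have 2 start sites in the table, and the one shown is that whose window holds the motif.
Per1, chr11:69098699-69098998, plus strand, E-box 166 bases before the start: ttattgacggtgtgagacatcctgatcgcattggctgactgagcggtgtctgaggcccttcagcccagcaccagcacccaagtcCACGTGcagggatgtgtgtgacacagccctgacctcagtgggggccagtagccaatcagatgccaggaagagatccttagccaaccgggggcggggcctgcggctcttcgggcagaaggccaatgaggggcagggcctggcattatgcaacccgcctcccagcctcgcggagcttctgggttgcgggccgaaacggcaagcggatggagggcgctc
Ciart, chr3:95882179-95882478, minus strand, E-boxes 116, 58 and 44 bases before the start: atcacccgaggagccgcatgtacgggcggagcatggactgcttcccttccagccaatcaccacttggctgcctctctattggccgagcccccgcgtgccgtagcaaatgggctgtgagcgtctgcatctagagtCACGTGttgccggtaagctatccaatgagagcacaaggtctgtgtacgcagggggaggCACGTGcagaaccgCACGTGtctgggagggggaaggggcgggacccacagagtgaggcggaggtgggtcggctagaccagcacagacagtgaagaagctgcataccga
Cry1, chr10:85185005-85185304, minus strand, E-box 60 bases before the start: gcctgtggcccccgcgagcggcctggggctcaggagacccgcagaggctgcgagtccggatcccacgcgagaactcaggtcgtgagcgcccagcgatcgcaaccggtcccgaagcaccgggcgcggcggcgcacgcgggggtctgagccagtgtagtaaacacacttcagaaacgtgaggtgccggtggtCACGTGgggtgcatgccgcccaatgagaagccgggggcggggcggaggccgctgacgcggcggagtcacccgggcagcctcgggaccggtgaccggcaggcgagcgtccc
Per3, chr4:151044616-151044915, minus strand, D-boxes 205 and 158 bases before the start: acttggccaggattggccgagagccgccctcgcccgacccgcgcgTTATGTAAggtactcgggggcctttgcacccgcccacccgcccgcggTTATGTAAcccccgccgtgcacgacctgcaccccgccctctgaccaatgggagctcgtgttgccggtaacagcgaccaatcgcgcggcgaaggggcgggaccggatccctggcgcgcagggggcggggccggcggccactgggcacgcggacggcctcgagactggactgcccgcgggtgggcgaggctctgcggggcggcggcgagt
Arntl, chr7:113207261-113207560, plus strand, ROR core from base 31 of the transcript: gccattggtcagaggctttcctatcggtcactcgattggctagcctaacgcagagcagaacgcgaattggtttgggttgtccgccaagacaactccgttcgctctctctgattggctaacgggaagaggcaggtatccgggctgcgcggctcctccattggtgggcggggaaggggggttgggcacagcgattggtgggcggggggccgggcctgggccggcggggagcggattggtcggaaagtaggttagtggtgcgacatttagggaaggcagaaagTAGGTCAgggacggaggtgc

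Each array was scaled to a mean signal of 2500, and a log2 ratio compares the CMS pool with the C pool. A gene was called where the ratio passed 1.5-fold, and 2-fold, the threshold of the methods, was used beside it. Probes that stand on the array more than once gave log2 ratios with a standard deviation (SD) of 0.13 between their spots (342 probes), 0.06 over the brighter and 0.18 over the dimmer probes, an error that leaves out differences between mice. The scanner software's own error, about 10% of a signal, gives the 95% intervals printed below. This share was the same for the brightest clock gene probes on both arrays, and larger for dim ones. For Per1 it gave an error of 0.20 in the log2 ratio, beside the SD of 0.06 between spots of brighter probes. The intervals of bright probes thus rest on a constant share of the signal and not on a measured spread. They also leave out differences between mice.

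The tissue was checked by its markers. All 5 neuronal and all 6 markers of cortical excitatory neurons were well above background on both arrays, with median log2 ratios of -0.03 and 0.04, and no marker of interneurons, astrocytes, oligodendrocytes or microglia passed 1.5-fold. Hepatocyte markers, which are foreign to the PFC, stood apart. All 12 of 12 were higher in the CMS pool by more than 1.5-fold and 11 by more than 2-fold, with a median log2 ratio of 2.995, and all were well above background in both pools. Their signals summed to 5911 for C against 53275 for CMS. Clock genes are active in the liver as well, and the part of this signal in the values below was not tested.

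Expression of Per1, Per2 and Dbp was lower in the CMS pool, with C signals 1.59, 1.53 and 1.46 times the CMS signals, and of these Dbp lay just short of the 1.5-fold threshold by the probe used. The C signal of Nr1d1 was 1.26 times and that of Nr1d2 1.22 times the CMS signal, with intervals that reach past 0 on the log2 scale. Arntl was the member with the highest ratio, 1.21, also not called. Per3 and Cry1 had ratios close to that of the median gene. Of the 10 genes, 2 (Per1 and Per2) fell past 1.5-fold, beside 2.08% of all genes. None rose past 1.5-fold, beside 3.66% of all genes. Among the 25442 genes well above background on both arrays, to which all 10 belong, 1.08% were lower and 2.15% higher past 1.5-fold. None passed 2-fold in either direction, beside 0.564% of all genes that were lower and 1.96% that were higher. The 10 genes had a median log2 ratio of -0.20 and all 27117 genes one of -0.03. Without Per1 and Per2, the lowest of the 10, the median of the other 8 was -0.079. Of the 10, 8 had a log2 ratio below 0 and 2 had one above. At least 55.1% of genes well above background on both arrays were below 0 as well, the share with a log2 ratio below -0.016.

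**Figure D1:**
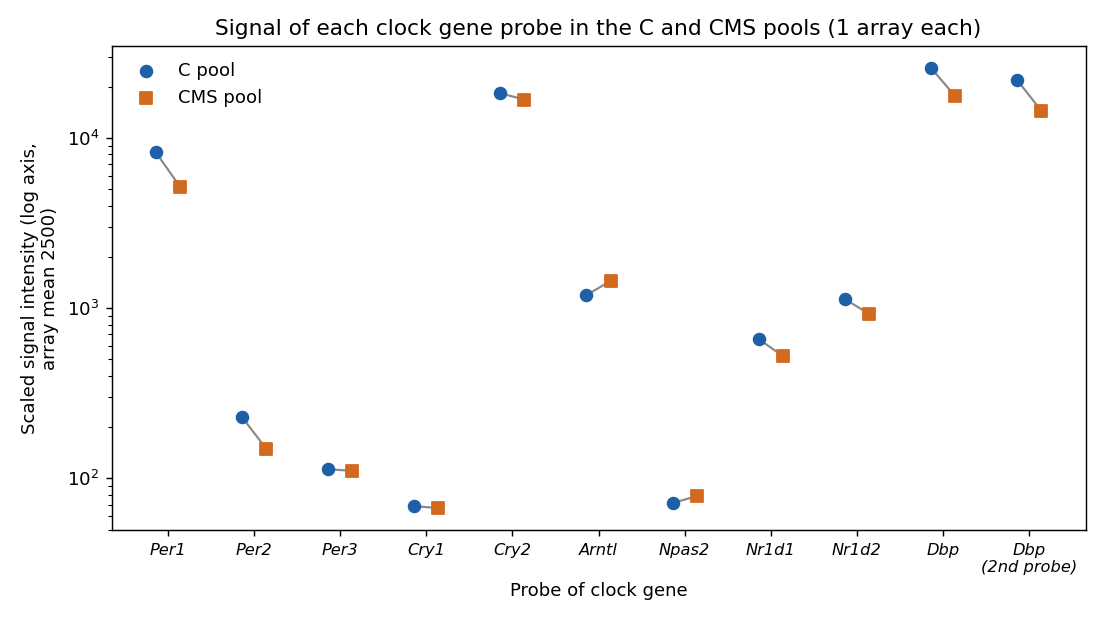
Scaled signal (log axis, mean of each array 2500) of each of the 11 clock gene probes in the C pool (blue circles) and the CMS pool (orange squares), 1 array each, with a line joining the values of 1 probe. Per1, Per2 and both Dbp probes drop most from C to CMS, Arntl and Npas2 are the only ones that are higher in the CMS pool, and heights of different probes are not comparable.

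Among the Period genes, which encode the repressors that bind CRY proteins and close the loop, Per1 (NM_011065) had a signal of 8206 for C against 5166 for CMS. This was a log2 ratio of -0.67 (95% interval -1.07 to -0.27), or a signal 1.59 times as high in the C pool. Per2 (NM_011066) had a signal of 229 for C against 149.6 for CMS, a log2 ratio of -0.61 (-1.02 to -0.21). Both differences were larger than the SD between spots of 1 probe. The call of Per2 was lost, at a log2 ratio of -0.45, with normexp background correction and quantile normalization, and at -0.55 once the median log2 ratio of the spots around it was taken off. Per3 (NM_011067), which is not needed for rhythm in the way that Per1 and Per2 are, had a signal of 113.0 for C against 110.9 for CMS. Its log2 ratio of -0.03 (-0.45 to 0.39) lay well inside the error. The Period genes thus had unequal ratios, with Per3 at the median of all genes and the others below it.

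The Cryptochrome genes encode the stronger repressors of ARNTL and CLOCK. Cry1 (NM_007771) had a signal of 68.7 for C against 67.0 for CMS, a log2 ratio of -0.04 (-0.51 to 0.44). Cry2 (NM_009963) had a signal of 18239 for C against 16759 for CMS, a log2 ratio of -0.12 (-0.52 to 0.28). Neither passed the fold threshold, and the width of the intervals means that equality was not shown either.

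Arntl and Npas2, which encode partners in the activating complex, were the members with log2 ratios above 0. Arntl (NM_007489) had a signal of 1192 for C against 1444 for CMS, a log2 ratio of 0.28 (-0.12 to 0.68). Npas2 (NM_008719), the partner of ARNTL that is found in the forebrain, had a signal of 71.5 for C against 78.8 for CMS, a log2 ratio of 0.14 (-0.30 to 0.58). Neither was called. Arntl kept a ratio above 0 under every alternative, with a lowest value of 0.10 when the arrays were not scaled, while Npas2 was at -0.03 in that setting.

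The REV-ERB receptors, which repress Arntl, were both lower in the CMS pool without reaching 1.5-fold. Nr1d1 (NM_145434) had a signal of 658 for C against 522 for CMS, a log2 ratio of -0.33 (-0.73 to 0.07). Nr1d2 (NM_011584) had a signal of 1129 for C against 925.5 for CMS, a log2 ratio of -0.29 (-0.69 to 0.11). The values of these paralogs lay within 0.05 of each other on the log2 scale.

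Dbp (NM_016974), the D-box activator and one of the most strongly rhythmic transcripts of many tissues, was the only member with more than 1 probe. The brighter probe had a signal of 25710 for C against 17569 for CMS, a log2 ratio of -0.55 (-0.95 to -0.15). The other probe had a signal of 21825 for C against 14430 for CMS, a log2 ratio of -0.60 (-1.0 to -0.20). With the threshold at a log2 ratio of 0.58, the first probe lay just outside and the second just inside, so that the count of 2 called genes turns on the probe taken for Dbp. The probes differed by less than the SD between spots.

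**Figure D2:**
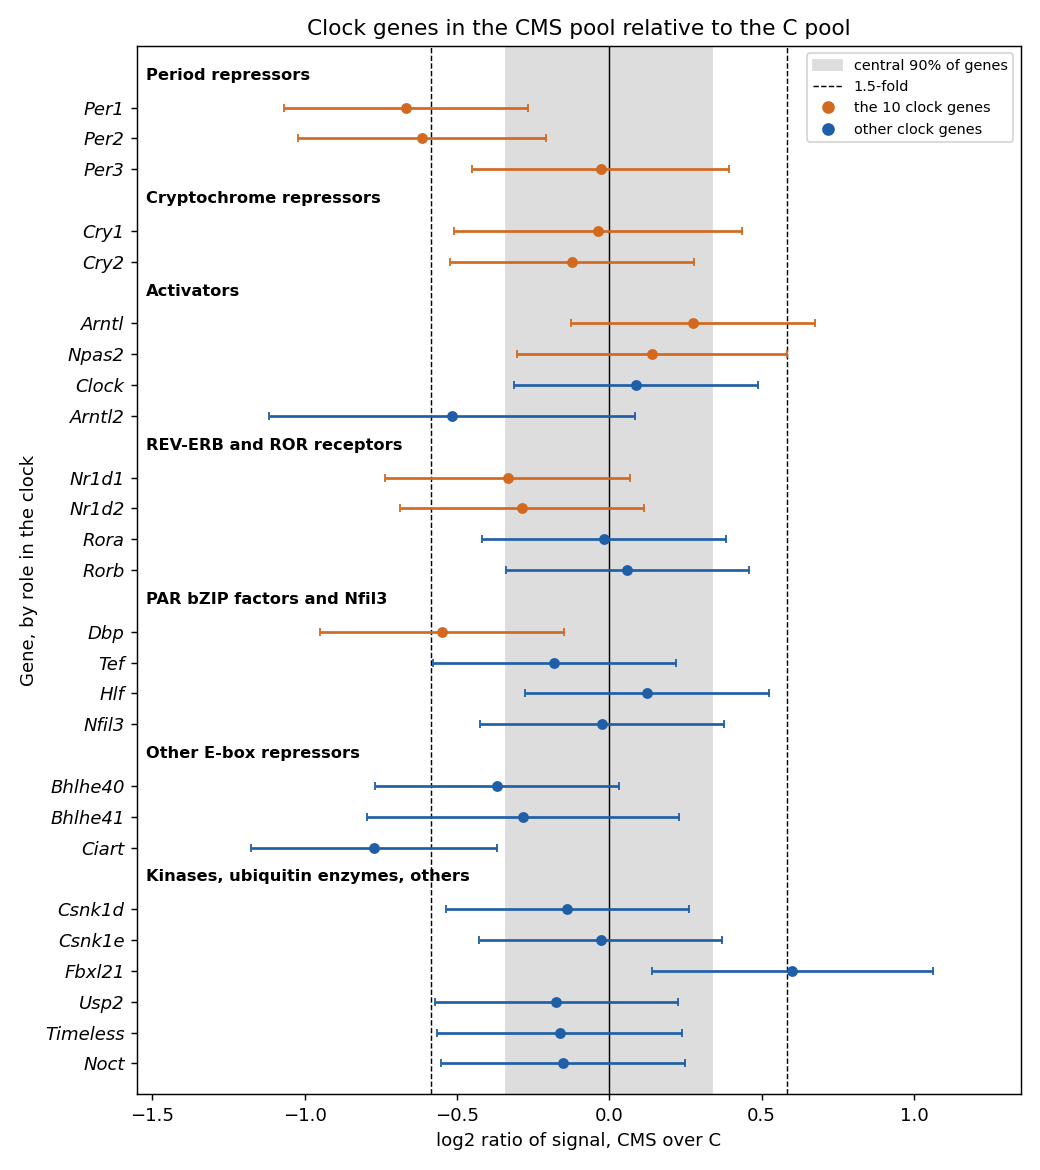
The log2 ratio of signal (CMS over C, horizontal axis) of the 10 clock genes (orange) and 16 other clock genes (blue), grouped by role, with bars for the 95% interval from the scanner's error. The grey band holds the central 90% of genes well above background on both arrays (-0.34 to 0.34) and dashed lines mark 1.5-fold. Per1, Per2, Dbp and Ciart lie left of the band with intervals that do not reach 0, and Fbxl21 lies right of it.

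The size of these differences depends on how far bright and dim genes vary. The 25442 genes well above background on both arrays were therefore divided by mean signal into 10 equal bins, and each clock gene was set beside the genes of its own bin. In the bin of Per1, 2 of 2544 genes had a lower ratio, Arc (-1.72) and Egr4 (-0.73), which were named after their values were seen and are both induced by neuronal activity. In the bin of Dbp, 1 of 2545 genes had a lower ratio, Nr4a1 (-1.25), another activity-induced gene. In the bin of Per2, 19 of 2544 genes (0.747%) were lower. For Nr1d1 the share was 1.77%, for Nr1d2 2.75% and for Cry2 8.09%. For Arntl, 50 of 2544 genes (1.97%) were higher, and for Npas2 28.6% were. Per3 and Cry1 lay near the middle of their bins, with 47.7% and 47.9% of genes lower. Nr1d1, Nr1d2 and Arntl, although below 1.5-fold, thus lay toward the edges of genes of like signal.

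**Figure D3:**
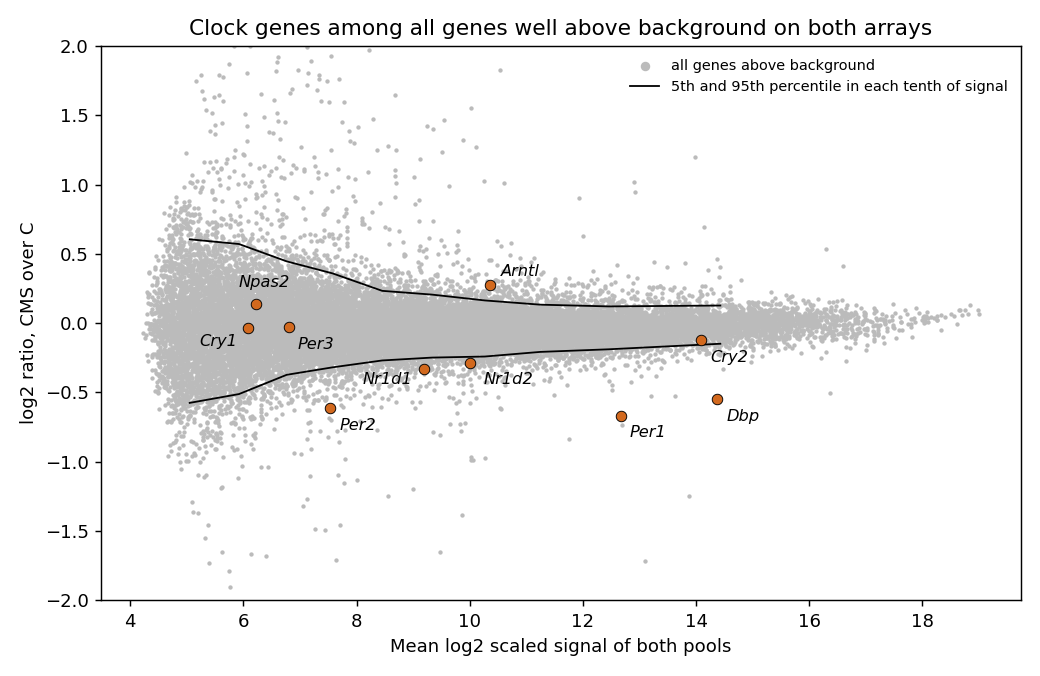
The log2 ratio (CMS over C) of 25442 genes well above background on both arrays against their mean log2 scaled signal, with the 10 clock genes in orange and black lines at the 5th and 95th percentile in each of 10 signal bins. The 167 genes with a log2 ratio beyond 2 in size are outside the axis. Spread narrows as signal grows, and Per1 and Dbp lie far below the lower line while Cry1, Per3 and Npas2 lie inside the lines.

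Each of the 16 other clock genes reported had a probe well above background on both arrays. Of these, 1 fell past 1.5-fold (Ciart), beside 2.08% of all genes, and 1 rose past it (Fbxl21), beside 3.66% of all genes, and their median log2 ratio was -0.14. Ciart, also called Chrono, is an E-box-driven repressor of ARNTL. Its signal was 428 for C against 251 for CMS, a log2 ratio of -0.77 (-1.18 to -0.37), and in its signal bin only Gm10536 (-1.25), named after its value was seen, was lower. Fbxl21, whose protein belongs to the ubiquitin ligases that act on CRY proteins, had a signal of 56.3 for C against 85.3 for CMS, a log2 ratio of 0.60 (0.14 to 1.06). With normexp background correction and quantile normalization this became 0.27, and a second Fbxl21 probe was not well above background in either pool. In the signal bin of Fbxl21, 116 of 2544 genes (4.56%) were higher.

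The further E-box repressors Bhlhe40 and Bhlhe41 (DEC1 and DEC2) had log2 ratios of -0.37 and -0.28, and neither was called. The dim Bhlhe41 probe had an interval of -0.79 to 0.23 and moved to -0.083 with normexp and quantile normalization, and a second probe was at -0.15. Bhlhe40 had a signal of 1127 for C against 873 for CMS. Of the relatives of Dbp, Tef had a log2 ratio of -0.18 and Hlf one of 0.12, and Nfil3, which represses through the same D-boxes, had -0.02. The log2 ratios of Tef and Hlf were 0.37 and 0.67 above that of Dbp.

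Clock, the main partner of ARNTL, had a signal of 514 for C against 546 for CMS, a log2 ratio of 0.09. Arntl2, a paralog of Arntl, had a log2 ratio of -0.52 (-1.12 to 0.08) at signals of 40.1 and 28.0, near background. The receptor genes Rora and Rorb, whose products activate through the element that NR1D1 and NR1D2 repress, had log2 ratios of -0.02 and 0.06. The kinase genes Csnk1d and Csnk1e, whose products mark PER proteins for breakdown, had -0.14 and -0.03. For the deubiquitinase gene Usp2 the value was -0.17, for Timeless -0.16 and for Noct, a rhythmic gene of RNA and metabolite turnover also known as Ccrn4l, -0.15. Second, dimmer probes of Rorb, Csnk1d, Csnk1e and Timeless, all well above background in both pools, had 0.17, -0.06, -0.15 and -0.24. None of these passed 1.5-fold.

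The genes were then grouped by the element through which textbooks place their control. The E-box and D-box group held 12 genes (Per1, Per2, Per3, Cry2, Nr1d1, Nr1d2, Dbp, Tef, Hlf, Bhlhe40, Bhlhe41 and Ciart). Of these, 11 had a log2 ratio below 0, as had at least 55.1% of genes well above background on both arrays. Past 1.5-fold, 3 fell (Per1, Per2 and Ciart), beside 2.08% of all genes, and none rose, beside 3.66%. The median was -0.31. Without Per2, whose call was lost at -0.45 and -0.55 under the alternatives named above, 2 calls are left. Hlf was the exception, at 0.12. The ROR element group held 5 genes (Arntl, Npas2, Clock, Cry1 and Nfil3), of which Cry1 is also driven through E-boxes. Of these, 3 were above 0, with a group median of 0.09. None of the 5 passed 1.5-fold, beside 3.66% of all genes that were higher and 2.08% that were lower. Without scaling of the arrays, where the median of all genes moved from -0.03 to -0.20, the ROR element group had a median of -0.086, which was still 0.12 above the median of all genes. The medians of the groups differed by 0.40 on the log2 scale, a difference that does not depend on a scaling factor, and by 0.31 to 0.42 over all alternatives. Between single genes, the log2 ratio of Arntl was 0.94 above that of Per1, 0.89 above that of Per2 and 0.82 above that of Dbp. The numbers of genes are small, and 5 of the 12 and 2 of the 5 were added to the 10 named genes with results of these arrays known.

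**Figure D4:**
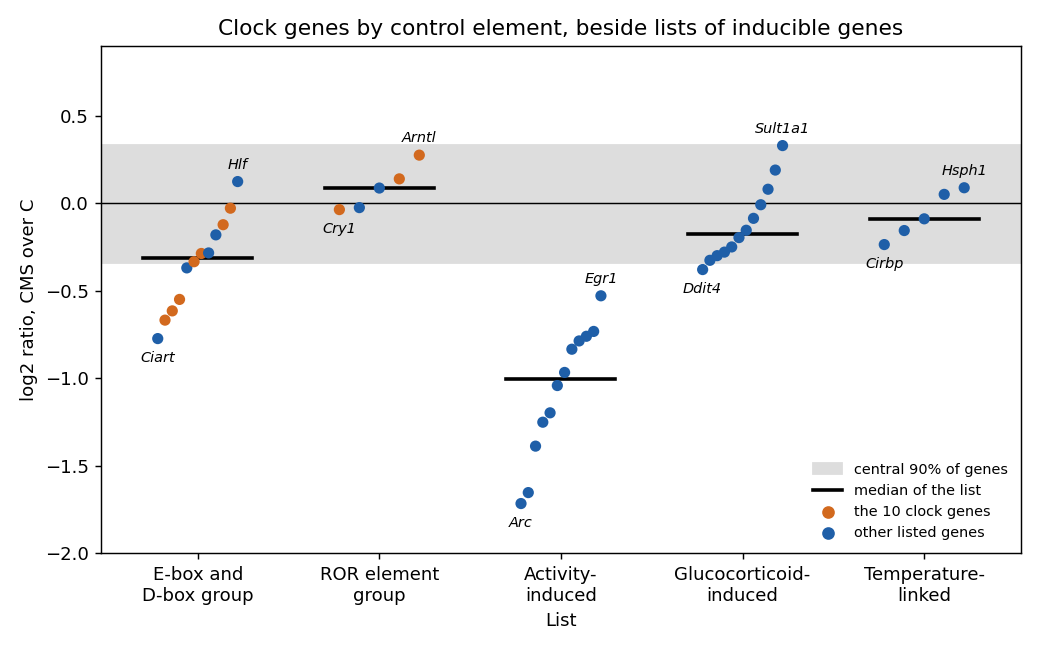
The log2 ratio (CMS over C) of each gene in the E-box and D-box group, the ROR element group and lists of activity-induced, glucocorticoid-induced and temperature-linked genes, with black bars at the medians, the 10 clock genes in orange, and the lowest and highest gene of each list named. The grey band holds the central 90% of genes. The E-box and D-box group has its median at -0.31, the ROR element group at 0.09 and the activity-induced genes at -1.0.

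Because Per1 and Per2 also respond to neuronal activity and to glucocorticoids, lists of genes of each kind were measured on the same arrays. Of 12 activity-induced genes, 11 fell past 1.5-fold, beside 2.08% of all genes, and 6 past 2-fold, beside 0.564%. Their median log2 ratio was -1.0. The values ran from -1.72 for Arc to -0.53 for Egr1, so that Per1, at -0.67, was lowered by less than 11 of the 12. Of 12 glucocorticoid-induced genes none passed 1.5-fold, beside 2.08% of all genes that were lower and 3.66% that were higher. Of the 12, 9 had a log2 ratio below 0, as had at least 55.1% of genes well above background, and 3 had one above. Their median was -0.17, beside -0.03 for all genes, with values from -0.38 for Ddit4 to 0.33 for Sult1a1. Fkbp5, Sgk1 and Tsc22d3, classical targets of the glucocorticoid receptor, had log2 ratios of -0.09, -0.30 and -0.28. The part of either kind of induction in the values of Per1 and Per2 was not tested.

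**Figure D5:**
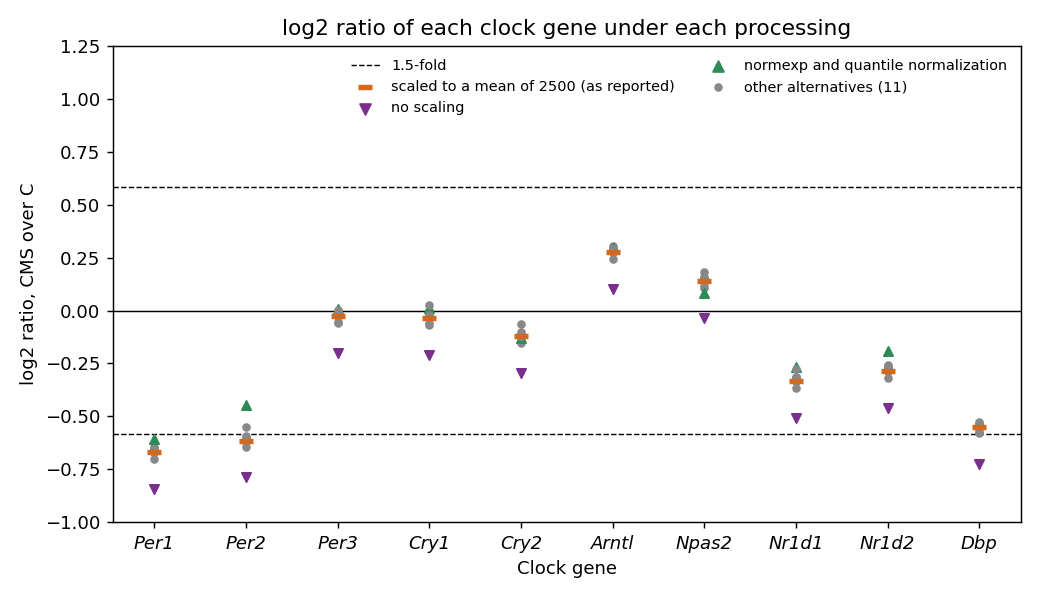
The log2 ratio (CMS over C) of each of the 10 clock genes as reported (orange dash) and under 13 alternatives, with no scaling as purple and normexp with quantile normalization as green triangles and the others as grey points. Dashed lines mark 1.5-fold. Per1, Per2, Nr1d1, Nr1d2, Dbp and Cry2 stay below 0 and Arntl above 0 in all of them, and Per2 and Dbp lie on either side of the 1.5-fold line depending on the alternative.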

How the data were processed

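Gene expression in the PFC was measured on 1 one-color Agilent array for the pooled RNA of each group, and each array held 59305 spots of 55681 probes besides control spots. The authors deposited Feature Extraction 10.10.1.1 output, whose processed signal intensity has the background subtracted and spatial trends removed, is linear and was not scaled from array to array. Flags mark spots that are well above background, saturated or outliers. They also deposited a table of intensities that is the processed signal times 1 factor per array. No probe sequence or probe position was used.

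Control spots were removed, as were the outlier spots, 130 for C and 133 for CMS, spots of 1 probe were averaged, and arrays were scaled to a mean of 2500 as the methods state. A probe was taken as well above background if a share of 0.5 or more of its spots was. If it failed this on 1 array, its signal there was set to no less than the lowest signal that passed (17.8 for C, 17.6 for CMS). If it failed on both, it had no ratio. Accessions without versions were matched to RefSeq genes of GRCm38.p6, which named 51.8% of the spots. For a gene with several probes the brightest by mean log2 signal over both arrays was taken, and all probes of the 10 clock genes were named.

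Processed intensities averaged 2946 for C and 2611 for CMS, 65.2% and 65.9% of spots were well above background, and none was saturated. Precision is limited by the number of arrays. The members and lists were chosen with earlier results of these data known. All 10 members and 16 other clock genes were named (2 further ones are not reported here), and genes of other lists were given by counts, medians and the largest rise and fall, with Fkbp5, Sgk1, Tsc22d3, Egr4, Nr4a1, Prok2, Rgs16 and Gm10536 also named after their values were seen. Ratios were computed with Python 3.11.15, numpy 2.4.6 and pandas 2.3.3, and normexp (on median spot intensities) with limma 3.58.1 in R 4.3.3. The 12 alternatives set at the start were 5 other scalings, normexp correction with an offset of 50, the deposited table, 3 treatments of dim probes, outlier spots kept and the mean of all probes. A 13th, added after seeing the data, took off the median log2 ratio of spots within 10 rows and 10 columns.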

Additional observations from a re-analysis of the deposited data

How the results depend on the processing

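No paired analysis was possible because each group has 1 array, and for the same reason no replicate could be left out and slide could not be a term. Of the 338 log2 ratios of single clock genes computed under 13 alternatives, 307 stayed within the SD between spots, 0.13, of the reported value. The other 31 moved, namely all 26 with no scaling and 5 with normexp and quantile normalization. Much of this count was fixed in advance and is no measure of robustness. The treatments of dim probes could not change these genes, all well above background in both pools. Scalings by a single factor per array, and the deposited table, move all genes by the same amount. Signal over background limits the dim probes most, among them those of Arntl2, Fbxl21, Bhlhe41, Cry1 and Npas2.

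With no scaling, by construction, all ratios moved by about the same amount, and the median log2 ratio was -0.38 for the 10 clock genes, -0.32 for the other clock genes, -0.48 for the E-box and D-box group and -0.086 for the ROR element group. Dbp then passed 1.5-fold, and 1265 genes were lower past 1.5-fold and 250 past 2-fold, in place of 563 and 153. The share of calls past 1.5-fold that were higher was 36.1% with no scaling and 63.8% as reported, and past 2-fold it was 63.1% and 77.7%.

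With normexp and quantile normalization the other clock genes had a median of -0.080, the E-box and D-box group had one of -0.23 and 1 clock gene, Per1, was lower past 1.5-fold. Then 441 genes were higher and 121 lower past 1.5-fold, and 265 higher and 38 lower past 2-fold, in place of 992, 563, 532 and 153, and 78.5% of calls past 1.5-fold were higher. The cause was not tested. With the median of surrounding spots taken off, chosen after seeing the data, 1 clock gene, Per1, was lower past 1.5-fold.

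The treatment of dim probes changed the counts over all genes. With no bound, which changes the values of dim probes, 315 genes were lower past 2-fold. When a gene needed a probe well above background in both pools, 549 were higher and 275 lower past 1.5-fold, and 294 and 44 past 2-fold. With no filter these were 2545 and 2169, and 1493 and 1069. These settings left the ratios of the 10 clock genes as reported.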

Other observations

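Genes outside the clock loop that follow daily rhythms of body temperature were close to the median of all genes. Of 6 such genes, 5 had a ratio and none passed 1.5-fold, with a median log2 ratio of -0.09. Cirbp, which encodes a cold-inducible RNA-binding protein, had the lowest value, -0.24, and Hsph1, which encodes a heat shock protein, the highest, 0.09.

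Markers of the suprachiasmatic nucleus, the master clock of the hypothalamus, were measured as a check on neighboring tissue. Neither Six6 nor Nms was well above background in either pool. Prok2 and Rgs16 had log2 ratios of -0.04 and -0.06. Avp, which encodes vasopressin, had a signal of 77.6 in the C pool and was not well above background in the CMS pool, which makes it at least 4.41-fold lower there. Erythroid markers were higher in the CMS pool, with a median log2 ratio of 0.49 over 3 of 5 genes, of which 1 passed 1.5-fold. Markers of the choroid plexus, striatum and thalamus had medians of 0.18 (4 of 5 genes with a ratio), -0.04 and 0.00, and Gbx2 and Drd2, dim in the C pool, were past 1.5-fold higher against their bounds.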
